A study of Mus musculus with 6 samples.

Results

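Collagens are the main structural proteins of the extracellular matrix, each built from 3 alpha chains wound into a triple helix. Fibrillar collagens make the cables of connective tissue, type IV collagen makes the network of basement membranes, and type VI collagen makes beaded filaments between the cells and the fibrils around them. Other classes attach to fibrils (FACIT collagens), span the membrane of epithelial cells or neurons, or sit at basement membranes and release fragments such as endostatin (multiplexins). In adult brain, connective tissue is sparse and collagen lies mostly along vessels and in the meninges, whereas ovary and uterus hold a collagen-rich stroma.

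The collagen chains were taken as all probes whose platform symbol is Col, a type number, the letter a and a chain number. This gave 48 probes of 42 genes, out of 20377 probes with 1 gene symbol and 26423 probes in all. Of these genes, 37 had 1 probe and 5 had several, 11 probes between them. Sorted into classes, there were 12 probes for fibrillar chains, 10 for type IV, 6 for type VI, 3 for types VIII and X, 1 for type VII, 9 for FACIT chains, 4 for transmembrane chains, 2 for multiplexins and 1 for type XXVIII. Col6a5, Col21a1 and Col26a1, also in the class list, were not analysed here.

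RNA of brain, ovary and uterus from female BALB/c mice was labelled with Cy5 and hybridised to 6 arrays. For each labelled tissue 1 array is labelled SHT (Sheng-Hua-Tang, a herbal decoction given by mouth at 200 mg/kg for 7 days) and 1 mock (no treatment). The question put to the arrays was which genes differ after SHT in each tissue. With a single array in each of the 6 groups, the SHT and mock readings of a tissue have no replicates behind them. The sources used here do not say how many mice an array stands for. In whole tissue, fewer cells of a type and less RNA per cell cannot be told apart.

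The values are linear intensities. A probe was called above background on an array where it read over the 95th percentile of 543 olfactory receptor probes there. This cut was 528 on the array labelled mock brain, 400.1 on that labelled SHT ovary and 270.2 to 314 on the others. Array medians lay between 179 and 224. Tissue markers went against 4 of the 6 labels. All 7 neuron probes were above background on the arrays labelled SHT ovary and mock brain, against 4 on that labelled SHT uterus, 3 on that labelled mock ovary, 1 on that labelled mock uterus and 0 on that labelled SHT brain. Of 10 ovary probes, 8 were above background on the arrays labelled SHT brain and mock uterus, against 1 on each of the others. All 9 keratinocyte probes were above background on the arrays labelled SHT uterus and mock ovary, against 2 or 3 on the others. Uterus probes did not separate the arrays as sharply, with 3 to 6 of 7 above background. Arrays are therefore named by their labels, and a difference below belongs to a pair of labels, not to a known tissue or to SHT.

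Of the 48 probes, 33, from 30 genes, read above background on at least 1 array. The 15 probes that did so on no array were those of Col2a1, Col4a3, Col9a1, Col9a3, Col10a1, Col11a2, Col13a1, Col22a1, Col23a1, Col25a1, Col27a1 and Col28a1, 1 of the 2 Col6a6 probes and 2 of the 3 Col4a4 probes. By array, 24 (SHT) and 10 (mock) collagen probes were above background in the pair labelled brain, 10 (SHT) and 28 (mock) in that labelled ovary, and 27 (SHT) and 25 (mock) in that labelled uterus. As a share of the 48, this was 50%, 20.8%, 20.8%, 58.3%, 56.25% and 52.1% in the same order. Over all named probes the shares were closer together, at 51.4% and 41.8% in the pair labelled brain (SHT and mock), 45.1% and 48.2% in the pair labelled ovary, and 52.4% and 52.2% in the pair labelled uterus.

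For 22 of the 33 probes above background (66.7%), both highest readings were on the arrays labelled SHT uterus and mock ovary, which held for 15.3% of the 12825 named probes above background somewhere. For 23 of the 33 (69.7%), both lowest readings were on the arrays labelled SHT ovary and mock brain, against 35.9% of the named probes. Across the 15 pairs of arrays, the collagens differed least between the arrays labelled SHT ovary and mock brain, where the median absolute log2 difference was 0.07 and 33 of 33 probes lay within 2-fold (99.8% of all named probes). Next came the arrays labelled SHT brain and mock uterus (0.50, 30 of 33 probes against 92.7% of named probes), and then those labelled SHT uterus and mock ovary (0.55, 27 of 33 probes against 87.9%). Pairs that share a tissue label lay further apart. The median absolute difference was 2.38 in the pair labelled brain (7 of 33 within 2-fold, against 49.5% of named probes), 3.99 in that labelled ovary (1 of 33, against 49.9%) and 1.23 in that labelled uterus (12 of 33, against 75.6%).

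**Figure D1:**
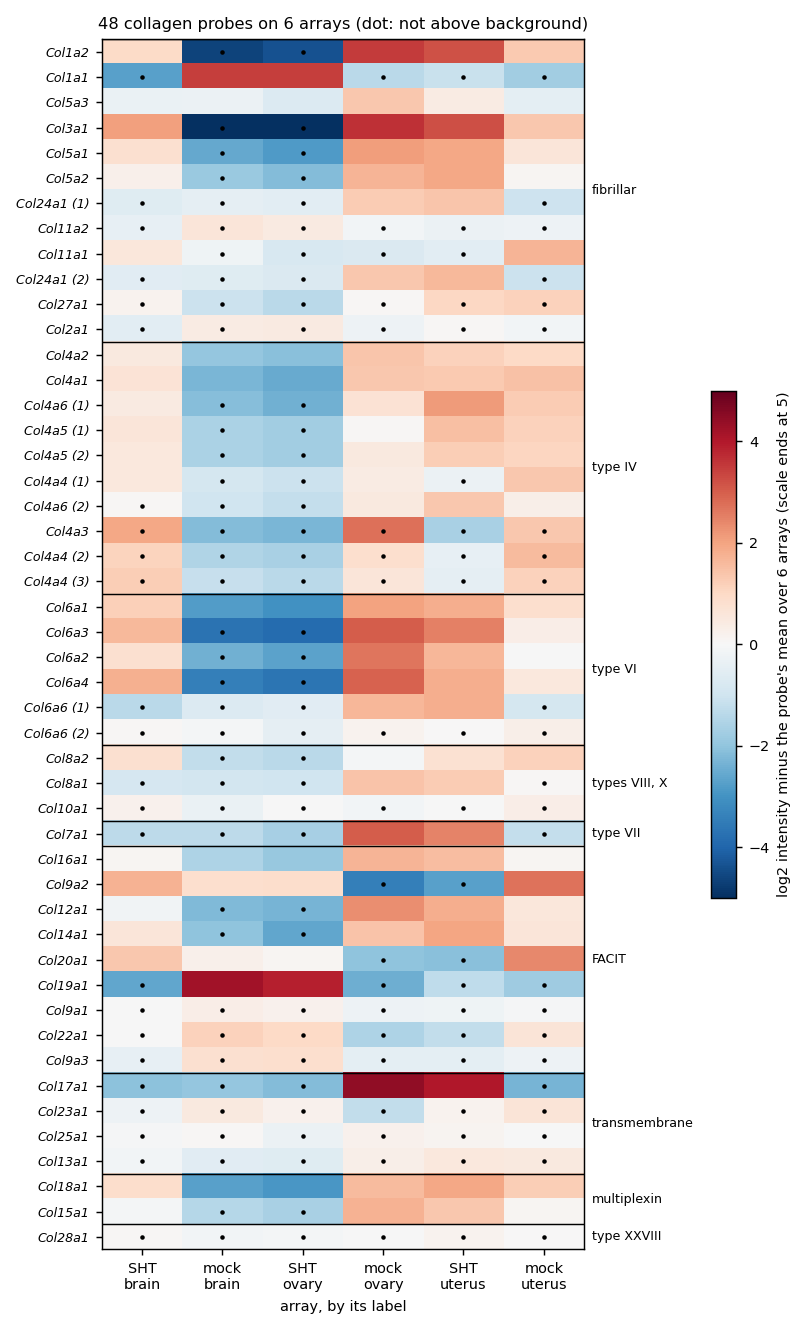
All 48 collagen probes (rows, by class, with several probes of a gene numbered from the brightest) on the 6 arrays (columns, by label). Colour is log2 intensity minus the mean of that probe over the 6 arrays, and a dot marks a reading not above background. Most rows are blue on the arrays labelled SHT ovary and mock brain and red on those labelled SHT uterus and mock ovary. Among probes above background on some array, Col1a1, Col19a1, Col9a2 and Col20a1 run the other way between these arrays.

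Promoter sequences are shown for 4 chains that stand for different orders of the arrays and whose windows overlap no annotated gene. Col1a2 and Col3a1 were highest on the arrays labelled SHT uterus and mock ovary, as was Col17a1, which was at background elsewhere. Col9a2 was highest on the arrays labelled SHT brain and mock uterus. Each line gives the 250 bases before the start site from RefSeq (GRCm38.p6), 5′ to 3′, with matches to the motif TATAAA, the motif CCAAT or the motif GGGCGG on either strand in capitals.
Col1a2, chr6:4505368-4505617, plus strand: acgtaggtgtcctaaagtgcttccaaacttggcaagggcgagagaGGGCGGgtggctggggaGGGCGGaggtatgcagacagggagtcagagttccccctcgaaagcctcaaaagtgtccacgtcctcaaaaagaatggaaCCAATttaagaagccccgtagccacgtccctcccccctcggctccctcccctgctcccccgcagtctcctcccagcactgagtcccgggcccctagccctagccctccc
Col3a1, chr1:45311288-45311537, plus strand: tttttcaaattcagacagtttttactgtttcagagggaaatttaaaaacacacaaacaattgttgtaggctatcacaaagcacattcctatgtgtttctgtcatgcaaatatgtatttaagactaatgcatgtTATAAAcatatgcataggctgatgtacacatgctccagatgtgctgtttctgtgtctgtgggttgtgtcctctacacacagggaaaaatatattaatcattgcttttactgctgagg
Col17a1, chr19:47692043-47692292, minus strand: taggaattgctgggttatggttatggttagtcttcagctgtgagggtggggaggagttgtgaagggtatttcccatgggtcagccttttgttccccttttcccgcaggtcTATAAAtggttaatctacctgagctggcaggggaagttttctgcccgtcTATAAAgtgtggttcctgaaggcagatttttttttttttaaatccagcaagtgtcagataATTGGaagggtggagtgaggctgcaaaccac
Col9a2, chr4:121039316-121039565, plus strand: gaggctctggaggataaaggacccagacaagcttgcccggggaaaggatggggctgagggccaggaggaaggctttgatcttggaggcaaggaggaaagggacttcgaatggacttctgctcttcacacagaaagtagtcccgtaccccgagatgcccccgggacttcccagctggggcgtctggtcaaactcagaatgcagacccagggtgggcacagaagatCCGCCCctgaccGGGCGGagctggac
The Col1a2 window holds 1 CCAAT and 2 GGGCGG matches, that of Col3a1 1 TATAAA, that of Col17a1 2 TATAAA and 1 CCAAT, and that of Col9a2 2 GGGCGG. The RefSeq table held a promoter for 34 of the 42 genes, in 37 windows, and none for Col1a1, Col2a1, Col4a3, Col5a2, Col9a3, Col12a1, Col14a1 and Col22a1. GGGCGG or its reverse complement was in 21 of these 37 windows (56.8%), against 32.7% of all 32851 windows of the same length. CCAAT was in 13 (35.1% against 33.8%) and TATAAA in 5 (13.5% against 12.4%). CCAAT, read on the other strand, can share its last letters with GGGCGG, though no matches overlap in the 4 windows shown. A match is a description of the letters, not a binding site.

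The fibrillar chains form the bulk of connective tissue collagen. Col1a2, a chain of type I collagen, read 3328 (SHT) and 69.4 (mock) in the pair labelled brain, 83.0 (SHT) and 19206 (mock) in that labelled ovary, and 15515 (SHT) and 4208 (mock) in that labelled uterus. It was at background on the arrays labelled SHT ovary and mock brain and above it on the other 4. Col3a1, the chain of type III collagen of vessels and soft organs, read 1291 (SHT) and 8.95 (mock) in the pair labelled brain, 8.34 (SHT) and 3870.4 (mock) in that labelled ovary, and 2905 (SHT) and 791 (mock) in that labelled uterus. The order of the arrays was nearly that of Col1a2, but the array labelled SHT brain was above that labelled mock uterus. Between the 4 arrays where both were above background, the ratio of Col3a1 to Col1a2 varied 2.07-fold, while each probe varied 4.89-fold and 5.77-fold.

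Type V collagen is a minor fibrillar collagen that starts type I fibrils. Its chain Col5a1 read 674 (SHT) and 66.0 (mock) in the pair labelled brain, 54.5 (SHT) and 1649 (mock) in that labelled ovary, and 1514 (SHT) and 599.8 (mock) in that labelled uterus. Col5a2 read 493 (SHT) and 113 (mock) in the pair labelled brain, 92.6 (SHT) and 1341 (mock) in that labelled ovary, and 1559 (SHT) and 445 (mock) in that labelled uterus. Both were at background on the arrays labelled SHT ovary and mock brain, and their ratio varied 1.41-fold over the other 4. Col5a3, a chain with a narrower distribution, read 1315 (SHT) and 1359 (mock) in the pair labelled brain, 1027 (SHT) and 4209 (mock) in that labelled ovary, and 2220.4 (SHT) and 1191 (mock) in that labelled uterus. It was the only fibrillar probe above background on all 6 arrays.

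The probe named Col1a1, after the other chain of type I collagen, ran against Col1a2 and Col3a1. It read 78.7 (SHT) and 5731 (mock) in the pair labelled brain, 5705 (SHT) and 204 (mock) in that labelled ovary, and 240.1 (SHT) and 158 (mock) in that labelled uterus. It was above background on the 2 arrays where Col1a2 was not, and at background on the 4 where Col1a2 was high. Type I collagen is normally built from 2 chains of Col1a1 and 1 of Col1a2. No second probe carries the Col1a1 name, and whether this one measures that gene was not tested.

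The remaining fibrillar probes were above background on 2 arrays or on none. Col24a1, a minor fibrillar chain of developing bone and cornea, had 2 probes that were above background on the arrays labelled SHT uterus (739 and 460.1) and mock ovary (694 and 377), and on no other. Col11a1, a chain of cartilage fibrils, passed background on the arrays labelled SHT brain (274) and mock uterus (602). It read between 106 and 159 on the other 4. Col2a1, the main cartilage collagen, read 54.0 to 108 and Col11a2 173 to 346. Neither was above background on any array.

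**Figure D2:**
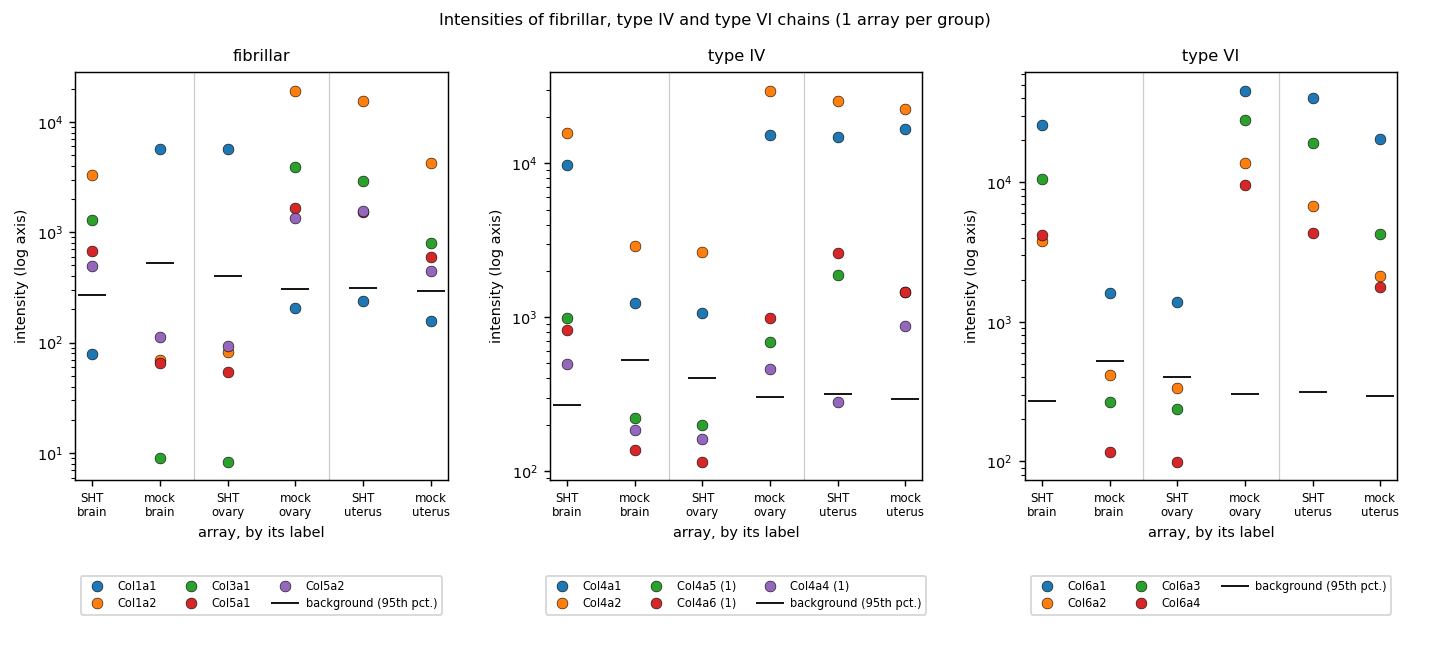
Intensity (log axis) of fibrillar, type IV and type VI chains on the 6 arrays, 1 point per probe and array, with bars at the 95th percentile of olfactory receptor probes; levels of different probes are not comparable. Col1a2, Col3a1 and the type VI chains rise and fall together over the arrays, and Col1a1 (5705 on the array labelled SHT ovary and 5731 on that labelled mock brain) is the exception.

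Type IV collagen is the scaffold of basement membranes, including those of capillaries. Col4a1 read 9701 (SHT) and 1238 (mock) in the pair labelled brain, 1058 (SHT) and 15235 (mock) in that labelled ovary, and 14849.7 (SHT) and 16697 (mock) in that labelled uterus. Col4a2, its partner in the common type IV trimer, read 15620 (SHT) and 2914 (mock) in the pair labelled brain, 2657 (SHT) and 29720.3 (mock) in that labelled ovary, and 25285 (SHT) and 22407 (mock) in that labelled uterus. Both were above background on all 6 arrays, and the arrays labelled SHT ovary and mock brain were the lowest for each. The 2 genes lie head to head on chromosome 8, with RefSeq start sites 21 bases apart on opposite strands. The Col4a1 to Col4a2 ratio varied 1.87-fold over the 6 arrays, while Col4a1 varied 15.8-fold and Col4a2 11.2-fold.

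Col4a5 and Col4a6 form the type IV trimer of smooth muscle and some epithelial basement membranes, and also lie head to head, on chromosome X, with start sites 1343 bases apart. The brighter Col4a5 probe read 989 (SHT) and 220.1 (mock) in the pair labelled brain, 199 (SHT) and 690.1 (mock) in that labelled ovary, and 1867 (SHT) and 1458 (mock) in that labelled uterus. The brighter Col4a6 probe read 826 (SHT) and 137 (mock) in the pair labelled brain, 115 (SHT) and 990.05 (mock) in that labelled ovary, and 2621 (SHT) and 1452 (mock) in that labelled uterus. Both were highest on the array labelled SHT uterus, where the fibrillar chains Col1a2 and Col3a1 were below their readings on the array labelled mock ovary. Their ratio varied 1.72-fold over the 4 arrays where both passed background. Col4a4, a chain of the glomerular basement membrane of the kidney, had 1 of 3 probes above background. That probe read 496 (SHT) and 186 (mock) in the pair labelled brain, 162 (SHT) and 462 (mock) in that labelled ovary, and 279.99 (SHT) and 876 (mock) in that labelled uterus, and was highest on the array labelled mock uterus. Col4a3 stayed at background, between 0.653 and 195.

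Type VI collagen surrounds muscle, fat and stromal cells. Its chain Col6a1 read 25726 (SHT) and 1618 (mock) in the pair labelled brain, 1393 (SHT) and 45562 (mock) in that labelled ovary, and 40118 (SHT) and 20370.5 (mock) in that labelled uterus. Col6a2, its neighbour on chromosome 10, read 3804 (SHT) and 413 (mock) in the pair labelled brain, 336 (SHT) and 13826 (mock) in that labelled ovary, and 6783 (SHT) and 2136 (mock) in that labelled uterus. Col6a3, the long chain that completes the trimer, read 10526 (SHT) and 265 (mock) in the pair labelled brain, 235 (SHT) and 27894 (mock) in that labelled ovary, and 19142 (SHT) and 4233 (mock) in that labelled uterus. The order of the arrays was the same for these 3 chains, which ran, downwards, mock ovary, SHT uterus, SHT brain and mock uterus. Only Col6a1 stayed above background on the arrays labelled SHT ovary and mock brain, where the background cut was highest. Col6a2, at 336 and 413 there, would have passed the cut of the other 4 arrays (at most 314). Over the other 4 arrays the ratio of Col6a1 to Col6a3 varied 2.95-fold and that of Col6a1 to Col6a2 2.89-fold.

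Col6a4, a chain that can take the place of Col6a3, read 4205 (SHT) and 116 (mock) in the pair labelled brain, 99.0 (SHT) and 9500.2 (mock) in that labelled ovary, and 4356 (SHT) and 1785 (mock) in that labelled uterus. Its ratio to Col6a3 varied 1.85-fold over the 4 arrays where both passed background. Col6a6, another such chain, had 2 probes. The first read 437 on the array labelled SHT uterus and 394 on that labelled mock ovary, and between 49.9 and 85.3 on the others. The second read 55.6 to 91.7, at background on every array.

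The collagens of epithelial attachment were above background on 2 of the 6 arrays. Col17a1, a transmembrane collagen of hemidesmosomes, which anchor basal keratinocytes to their basement membrane, read 103 (SHT) and 109 (mock) in the pair labelled brain, 94.5 (SHT) and 9231 (mock) in that labelled ovary, and 6844 (SHT) and 83.6 (mock) in that labelled uterus. Col7a1, the anchoring fibril that ties that membrane to the dermis, read 119 (SHT) and 119 (mock) in the pair labelled brain, 92.5 (SHT) and 2393 (mock) in that labelled ovary, and 1665 (SHT) and 129 (mock) in that labelled uterus. For each, these were the arrays labelled SHT uterus and mock ovary. All 9 keratinocyte marker probes passed background there, with summed intensities of 214997 on the array labelled SHT uterus and 285871 on that labelled mock ovary, against 4413 to 5369 on the other 4. The part of the keratinocyte markers in this result was not tested. The other transmembrane chains, Col13a1, Col23a1 and the neuronal collagen Col25a1, read between 42.1 and 209, all at background.

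**Figure D3:**
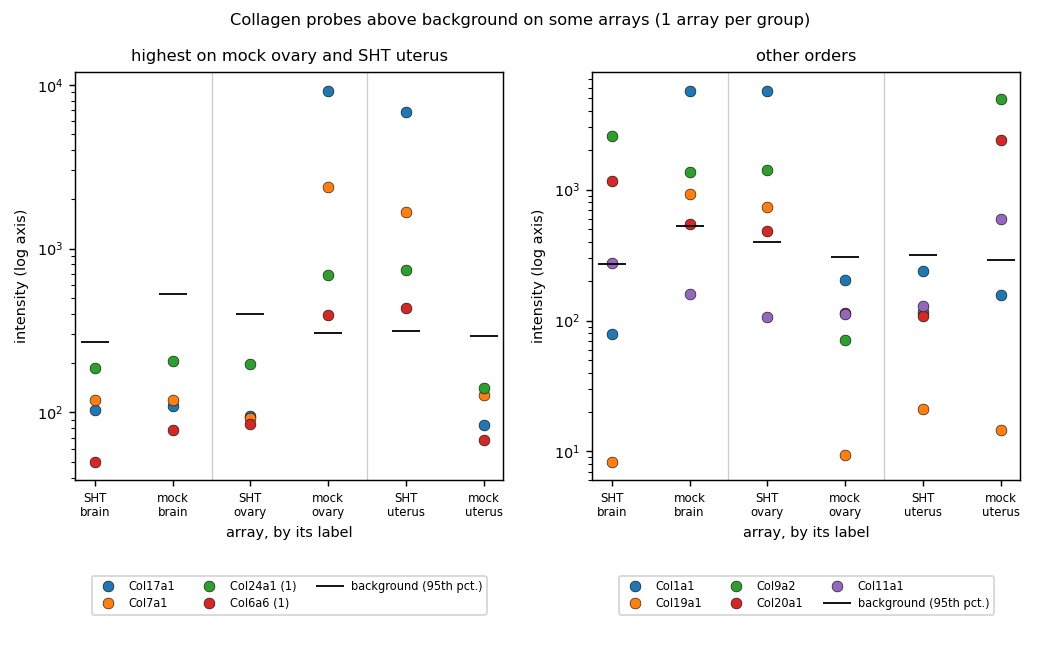
Intensity (log axis) of collagen probes above background on some arrays, with bars at the 95th percentile of olfactory receptor probes; levels of different probes are not comparable. The left panel holds Col17a1, Col7a1, Col24a1 and Col6a6, above background on the arrays labelled SHT uterus and mock ovary. The right panel holds Col1a1 and Col19a1, high on those labelled SHT ovary and mock brain, and Col9a2, Col20a1 and Col11a1, highest on that labelled mock uterus.

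FACIT collagens sit on the surface of fibrils and showed 3 different orders. Col16a1, found in fibrils of skin and other connective tissue, read 2902 (SHT) and 916 (mock) in the pair labelled brain, 717 (SHT) and 8614 (mock) in that labelled ovary, and 7859 (SHT) and 2870.1 (mock) in that labelled uterus. Col12a1, which links fibrils in dense connective tissue, read 664 (SHT) and 161 (mock) in the pair labelled brain, 148 (SHT) and 3761 (mock) in that labelled ovary, and 2619 (SHT) and 1100.4 (mock) in that labelled uterus. Col14a1, a regulator of fibril diameter, read 924 (SHT) and 153 (mock) in the pair labelled brain, 101 (SHT) and 1655 (mock) in that labelled ovary, and 2372 (SHT) and 934 (mock) in that labelled uterus. All 3 had both highest readings on the arrays labelled SHT uterus and mock ovary, as Col1a2 and Col3a1 did.

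Col9a2, a chain of the type IX collagen of cartilage, read 2564 (SHT) and 1357 (mock) in the pair labelled brain, 1411 (SHT) and 71.1 (mock) in that labelled ovary, and 115 (SHT) and 4971 (mock) in that labelled uterus. It was at background on exactly the 2 arrays where Col16a1, Col12a1 and Col1a2 were highest. The other type IX chains, Col9a1 (94.0 to 138) and Col9a3 (2.66 to 14.3), stayed at background on every array. Col20a1 read 1158 (SHT) and 549 (mock) in the pair labelled brain, 482 (SHT) and 113 (mock) in that labelled ovary, and 108 (SHT) and 2401 (mock) in that labelled uterus. It shared with Col9a2 the highest readings on the arrays labelled SHT brain and mock uterus, where 8 of 10 ovary marker probes were above background. The part of these markers in the Col9a2 and Col20a1 readings was not tested. Col19a1, a collagen made by subsets of neurons and by developing muscle, read 8.31 (SHT) and 922 (mock) in the pair labelled brain, 739 (SHT) and 9.36 (mock) in that labelled ovary, and 21.0 (SHT) and 14.6 (mock) in that labelled uterus. It passed background only on the arrays labelled SHT ovary and mock brain, where all 7 neuron probes did. From 0 to 4 of the 7 did so on the other arrays. The part of the neuron markers in this was not tested. Col19a1 was named after its values were seen, as were Col2a1, Col4a3, Col5a1, Col5a2, Col9a1, Col9a3, Col22a1 and Col27a1.

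Among the multiplexins, Col18a1, the source of endostatin, read 7567 (SHT) and 619 (mock) in the pair labelled brain, 542 (SHT) and 12063 (mock) in that labelled ovary, and 15555 (SHT) and 9659 (mock) in that labelled uterus. It was above background on all 6 arrays and highest on that labelled SHT uterus. Col15a1, a related collagen of muscle and capillary basement membranes, read 756 (SHT) and 306 (mock) in the pair labelled brain, 261 (SHT) and 2684 (mock) in that labelled ovary, and 2039 (SHT) and 867 (mock) in that labelled uterus. The ratio of Col15a1 to Col18a1 varied 2.48-fold over the 4 arrays where both passed background. Of the network-forming chains, Col8a2, which is prominent in the cornea and vessel wall, read 972 (SHT) and 238 (mock) in the pair labelled brain, 219.7 (SHT) and 521 (mock) in that labelled ovary, and 964 (SHT) and 1260.4 (mock) in that labelled uterus. Its partner Col8a1 passed background on the arrays labelled SHT uterus (663) and mock ovary (734) alone. Col10a1, a collagen of growth plate cartilage, read at most 14.9, and Col28a1 at most 10.3.

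The comparisons that the labels imply set SHT against mock in each tissue. Differences are log2 of SHT over mock, set relative to the median named probe of the pair, which differed by -0.05 in the pair labelled brain, 0.14 in that labelled ovary and 0.05 in that labelled uterus. Probes were counted where the level in the pair passed a level floor of 203 to 218 (the geometric mean of the pair, at its median over all probes) and the difference was at least 2-fold. A fold is given as "at least" where the dimmer array was at background, whose 95th percentile then took the place of its reading. Counts use the readings as deposited, so a probe counted as 2-fold different can have a smaller bound. With 1 array per group none of these counts is a test.

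In the pair labelled brain, most collagens above the floor were higher on the SHT array, with type VI chains and Col1a2 at the far end of these. Among the 23 collagen probes that passed the floor, 19 were higher by 2-fold or more, 1 was lower and 3 lay within 2-fold. Over all 11688 named probes above the floor, 22.8% were higher and 23.3% lower. The median collagen difference was 2.17, against 0 for the named probes. With each reading raised at least to background, 13 of these 19 were 2-fold higher and 6 were not (Col4a4, 1 Col4a5 probe, Col4a6, Col5a2, Col12a1 and Col15a1), while Col9a2 came to be. The median was then 1.14. Col6a3 was at least 20.6-fold higher, Col6a1 16.4-fold higher, Col18a1 12.6-fold higher, Col6a4 at least 8.23-fold higher, Col4a1 8.09-fold higher, Col6a2 at least 7.45-fold higher and Col1a2 at least 6.51-fold higher. All 6 type IV probes and all 4 type VI probes above the floor were higher, with medians of 2.34 and 4.63. Col5a3 was nearly level (1315 on the SHT array and 1359 on the mock array, a difference of -0.0012 on the log2 scale). The 1 lower probe was that named Col1a1, at least 20.5-fold lower. Col19a1, under the floor, was at least 3.30-fold lower. Col3a1 (at least 2.53-fold higher) and Col5a1 (at least 1.32-fold higher) were also under the floor and so not counted.

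In the pair labelled ovary most collagens above the floor were lower on the SHT array, with type VI chains, Col1a2 and Col17a1 at the far end of these. Among the 28 collagen probes that passed the floor, 24 were lower by 2-fold or more on the SHT array, 3 were higher and 1 lay within 2-fold. Over all 11627 named probes above the floor, 23.6% were lower and 23.1% higher. The median collagen difference was -3.68. With each reading raised at least to background, 22 of these 24 were 2-fold lower, all but Col4a4 and Col8a2, with a median of -2.30. Col6a3 was at least 76.8-fold lower, Col1a2 at least 52.9-fold lower, Col6a2 at least 38.1-fold lower, Col6a1 36.1-fold lower, Col6a4 at least 26.2-fold lower and Col17a1 at least 25.4-fold lower. Col18a1 was 24.5-fold lower, Col4a1 15.9-fold lower, Col16a1 13.2-fold lower and Col12a1 at least 10.4-fold lower. The 3 higher probes were Col1a1, at least 17.0-fold higher, Col9a2, at least 4.20-fold higher, and Col20a1, at least 1.44-fold higher. The 1 probe within 2-fold was Col11a2, at background on both arrays. Under the floor, and so not counted, were Col3a1, at least 10.7-fold lower, and Col19a1, at least 2.20-fold higher, among others.

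In the pair labelled uterus Col17a1, Col7a1 and most fibrillar and type VI probes above the floor were higher on the SHT array. The type IV chains mostly lay within 2-fold. Among the 29 collagen probes that passed the floor, 15 were higher by 2-fold or more on the SHT array, 4 were lower and 10 lay within 2-fold. Over all 11735 named probes above the floor, 12.5% were higher and 8.79% lower. The median collagen difference was 1.16. Col17a1 was at least 22.7-fold higher and Col7a1 at least 5.52-fold higher. Col6a3 was 4.37-fold higher, Col1a2 3.57-fold higher, Col3a1 3.55-fold higher and Col24a1 at least 2.45-fold higher. Of 7 type IV probes, 6 lay within 2-fold, with a median of 0.13, whereas 5 of 7 fibrillar probes were higher, with a median of 1.76. Of 4 type VI probes 3 were higher, with a median of 1.43, and of 5 FACIT probes 3 were higher and 2 lower. The 4 lower probes were Col9a2, at least 16.3-fold lower, Col20a1, at least 7.90-fold lower, Col4a4, at least 2.88-fold lower, and Col11a1, at least 1.98-fold lower.

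**Figure D4:**
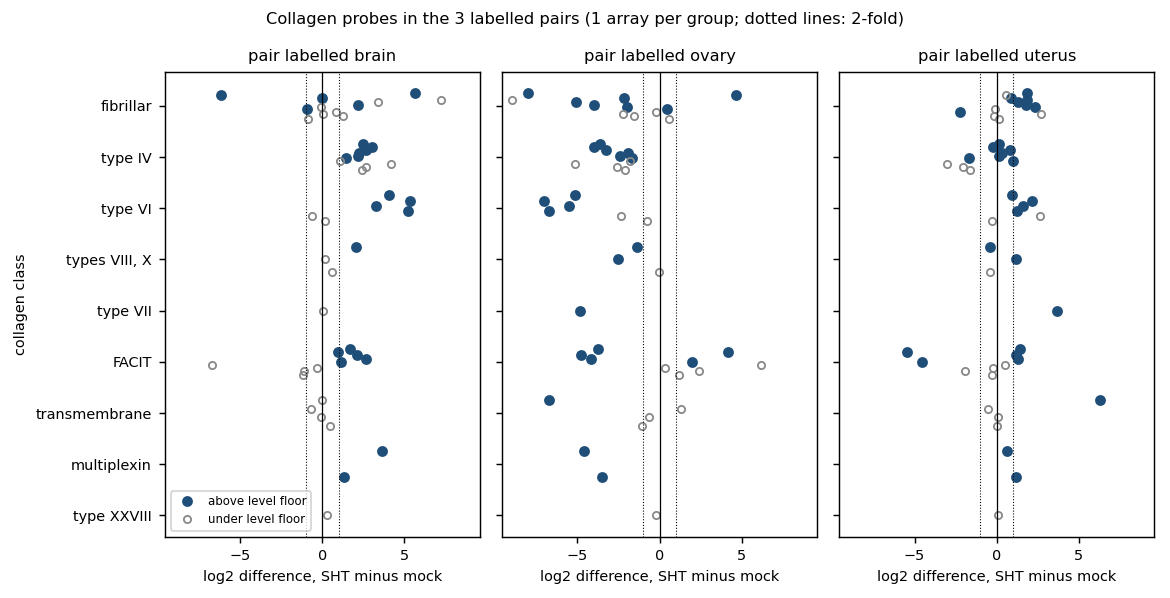
Log2 difference of SHT minus mock for each collagen probe by class (rows) in the 3 labelled pairs (panels), 1 array per group; filled points passed the level floor, open ones did not, and dotted lines mark 2-fold. Filled points lie mostly to the right in the pair labelled brain (19 of 23 past 2-fold), to the left in that labelled ovary (24 of 28) and to the right with a smaller size in that labelled uterus (15 of 29).

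The average SHT effect over the 3 labelled tissues was tested with limma, with the labelled tissue as a block. None of the 30 collagen probes tested was called at an adjusted p under 0.05, and 0 had an unadjusted p under that value. Over all 11703 probes the share called was 0% in either direction, and 4 had an unadjusted p under 0.05. The smallest adjusted p (limma, Benjamini-Hochberg) was 1. The average effect of Col1a2 was -0.12 on the log2 scale with a 95% interval of -8.30 to 8.05, so the test allowed effects of either sign and large size. The spread in this test is between labelled tissues and not between mice. Neuron, ovary and keratinocyte markers were each high on an SHT array and on a mock array of another tissue label. Such profiles enter both sides of the average and the spread within the block, so 0 calls cannot show that SHT had no effect.

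Where a gene had several probes, they mostly gave the same direction. The exceptions were Col24a1 in the pair labelled brain, where both differences were near 0, and Col6a6 in the pairs labelled brain and uterus. The 2 Col4a5 probes differed from each other by at most 0.46 on the log2 scale in any pair, and those of Col24a1 by at most 0.31. The Col4a6 probes shared a direction in all 3 pairs (2.64 and 1.10 in the pair labelled brain), but there the second was at background on both arrays and the first on the mock array, so their sizes cannot be set against each other. The 3 Col4a4 probes were all higher in the pair labelled brain and all lower in the other 2 pairs. All but the brightest of these were at background on every array, and that one on the dimmer array of each pair. The Col6a6 probes disagreed in sign in the pair labelled uterus, at 2.64 and -0.29, where the second was at background on both arrays.

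The enzymes that modify, fold and cross-link collagen were mostly higher on the SHT array in the pair labelled brain, mostly lower in that labelled ovary and mostly within 2-fold in that labelled uterus. The list had 42 probes of 31 genes. In the pair labelled brain 15 of the 22 that passed the floor were higher by 2-fold or more and 0 lower (median 2.21), and in that labelled ovary 22 of 27 were lower and 1 higher (median -2.49). In that labelled uterus 4 of 29 were higher and 4 lower (median -0.04). Over all named probes above the floor, 22.8% were higher and 23.3% lower in the pair labelled brain, and 23.1% and 23.6% in that labelled ovary. In the pair labelled uterus the shares were 12.5% and 8.79%, near those of the enzymes. Serpinh1, the collagen chaperone HSP47, read 11093 (SHT) and 559.5 (mock) in the pair labelled brain, 569.5 (SHT) and 16276 (mock) in that labelled ovary, and 17478 (SHT) and 15145 (mock) in that labelled uterus. P4hb, a subunit of the enzyme that hydroxylates proline in collagen, read 25247 (SHT) and 5399 (mock) in the pair labelled brain, 5605 (SHT) and 27985 (mock) in that labelled ovary, and 28265 (SHT) and 28536 (mock) in that labelled uterus. Both read similarly on the SHT and mock arrays of the pair labelled uterus, where Col1a2 and Col6a3 were over 3-fold higher. Crtap and Ppib, partners in the prolyl 3-hydroxylation complex, differed by 3.49 and 1.41 in the pair labelled brain, -3.93 and -1.58 in that labelled ovary, and -0.39 and -0.32 in that labelled uterus (log2).

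Among collagen receptors, 4 of 13 probes passed the floor in each pair. All 4 were higher in the pair labelled brain and lower in that labelled ovary, and 2 of 4 were higher in that labelled uterus. They were Ddr1 and Ddr2, receptor kinases that collagen activates, Mrc2, which takes up collagen for breakdown, and Itga11, an integrin of fibroblasts. Over all named probes above the floor, 22.8% were higher in the pair labelled brain, 23.6% lower in that labelled ovary and 12.5% higher in that labelled uterus. Ddr2 read 2778 (SHT) and 381 (mock) in the pair labelled brain, 325 (SHT) and 4213 (mock) in that labelled ovary, and 10312 (SHT) and 3727 (mock) in that labelled uterus.

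Summed readings of stromal cell markers moved with these results, though not every single marker did. The summed intensity of 10 fibroblast marker probes was 122320 and 11226 in the pair labelled brain (SHT and mock), 9026 and 177480 in the pair labelled ovary, and 186895 and 112939 in the pair labelled uterus. Of 9 fibroblast probes above the floor, 7 were higher by 2-fold or more and 0 lower in the pair labelled brain. All 9 were lower in that labelled ovary, and 4 were higher and 1 lower in that labelled uterus. The lower one was S100a4 (5720 on the SHT array and 26587 on the mock array). The brightest probes weigh most in a sum, such as the 2 Dcn probes (38007 and 40931 on the array labelled SHT brain). The summed intensity of 7 smooth muscle probes was 53151 and 3459 in the pair labelled brain (SHT and mock), 2639.8 and 99651 in the pair labelled ovary, and 90734 and 53658 in the pair labelled uterus. In the same order of pairs, 4 of 4 above the floor were higher, 4 of 4 lower and 5 of 6 higher. Over all named probes above the floor, 22.8% were higher and 23.3% lower in the pair labelled brain. These shares were 23.1% and 23.6% in that labelled ovary, and 12.5% and 8.79% in that labelled uterus. The summed intensity of 10 endothelial probes varied less, at 13744 and 8046 in the pair labelled brain (SHT and mock), 8051 and 11263 in the pair labelled ovary, and 19003 and 21210.2 in the pair labelled uterus. On the arrays labelled SHT ovary and mock brain 4 of 10 fibroblast probes were above background, against 8 to 9 on the other 4, and 2 of 7 smooth muscle probes, against 5 to 6. Over all named probes, 45.1% and 41.8% were above background on these 2 arrays, against 48.2% to 52.4% on the other 4. The part of these markers in the collagen differences was not tested. Of 8 chondrocyte and bone probes, 1, named Sp7, passed background, and it did so on all 6 arrays.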

How the data were processed

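RNA of 6 tissue samples was hybridised to 1-colour Cy5 arrays, per the labels. The deposited table holds linear intensity for each probe. The submitters' processing notes name limma without its role, and the sources used here give neither the background correction nor the scaling nor detection calls. Probes were named from the platform annotation (20377 with 1 symbol, 0 with several, 6046 with none), updated through RefSeq GRCm38.p6 (18213 were current symbols and 2164 synonyms).

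Readings under the 5th percentile of an array's positive values were set to it before log2 was taken, and arrays were not rescaled against each other. SHT and mock were compared within each labelled tissue, with no test (1 array per group). limma 3.58.1 in R 4.3.3 tested the average effect (lmFit, eBayes with trend, labelled tissue as block, arrays centred on their median, Benjamini-Hochberg). Both steps were checked on simulated data, in which SHT and mock readings were the same apart from noise and added shifts. The labelled pairs here are not alike in that way, so the check does not cover them. The number of arrays limits the precision. Members, classes, gene lists and the background percentile were chosen with earlier results of these data known. By rule, up to 4 genes per class, probes that disagree, Col1a1, and the 6 largest differences each way per pair were named; other members were named with their values seen. Alternatives were quantile normalization, values as deposited, other floors, a 3-fold threshold, raising values to background, the brightest probe per gene, and limma without block, trend or 1 pair.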

Additional observations from a re-analysis of the deposited data

Results flagged for a closer look

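These values were picked out because the SHT minus mock difference had opposite signs in 2 labelled pairs. A single probe, taken from those named by rule, also had to pass the level floor and differ 2-fold or more in both. Each probe is listed once, for the 2 pairs where its opposite differences lay furthest apart. Each pair holds 1 array per group, so the difference between pairs was not tested. Many of these values rest on readings at background and are not exact, so each is followed in brackets by the value with readings raised to background. The median collagen difference (log2) was 5.84 (3.44) for the pair labelled brain minus that labelled ovary, and -4.83 (-3.40) for the pair labelled ovary minus that labelled uterus.

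Of 23 single probes picked out, 15 had a positive difference in the pair labelled brain and a negative one in that labelled ovary. The share of all named probes with such opposite differences was not counted. For 99.8% of named probes, the mock reading of the brain pair lay within 2-fold of the SHT reading of the ovary pair. These similar readings enter the differences with opposite signs, so opposite results need not be particular to collagens. For the fibrillar chain Col1a2 the pair labelled brain minus that labelled ovary was 13.63 (8.73) on the log2 scale. Among type VI chains it was 12.39 (10.93) for Col6a3, 11.95 (8.05) for Col6a4, 9.21 (9.51) for Col6a1 and 8.75 (8.45) for Col6a2. Among type IV chains it was 7.00 (7.31) for Col4a1, 6.09 (6.40) for Col4a2, 5.89 (2.44) for Col4a6 and 4.15 (2.18) for Col4a5. Among FACIT chains it was 6.89 (4.06) for Col12a1, 6.82 (3.35) for Col14a1 and 5.44 (5.74) for Col16a1. It was 8.28 (8.58) for Col18a1, 4.85 (3.75) for Col15a1 and 3.46 (1.75) for Col8a2. The probe named Col1a1 had the opposite signs, with a difference between these pairs of -10.80 (-8.14).

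Another 6 probes were listed for opposite signs in the pairs labelled ovary and uterus. Some of the probes above also had opposite signs in these 2 pairs, such as Col6a3 (-7.03 and 2.13). The pair labelled ovary minus that labelled uterus was -13.06 (-9.25) for Col17a1, -8.48 (-5.27) for Col7a1, -4.31 (-2.31) for Col24a1 and -3.71 (-2.23) for Col8a1. It was 9.65 (6.02) for Col9a2 and 6.48 (3.42) for Col20a1. The Col4a4 probe above background was higher in the pair labelled brain and lower in that labelled uterus, a difference of 3.16 (1.71). With readings raised to background, it came to 0.14 in the pair labelled brain and -1.56 in that labelled uterus. Col4a6, Col12a1 and Col15a1 were then also under 2-fold in the pair labelled brain, and Col8a2 and Col20a1 in that labelled ovary.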

How the results depend on the processing

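Among the probes followed singly under other scalings and with values raised to background, no difference of 2-fold or more changed sign. Col5a3, nearly level in the pair labelled brain (-0.0012), came to 0.19 with values raised to background. Of the summary values under alternatives, 76 stayed close to the reported ones and 11 moved, the cause of which was not tested. Without the level floor, probes lower in the pair labelled brain numbered 4 (median 1.20), those higher in the pair labelled ovary 7 (median -2.19), and those lower in the pair labelled uterus 8 (median 0.39). With the probes above background on the brighter array, 2 were lower in the pair labelled brain. With values raised to background, the medians were 1.14 in the pair labelled brain and -2.30 in that labelled ovary. In this setting 33 single values moved and 39 stayed close. Under quantile normalization and with values as deposited, all 72 single values stayed close in each. At 3-fold, 8 probes were higher in the pair labelled uterus. Without the probe named Col1a1, chosen after seeing the data, 0 were lower in the pair labelled brain. By limma 0 collagen probes were called in every alternative run, which, as said with that test, cannot show that SHT had no effect. Without the pair labelled ovary, 6 of 30 collagen probes and 466 of all 11703 had an unadjusted p under 0.05. In every other limma run 0 collagen probes did, against 4 to 132 of all probes. No paired analysis was possible because the labels carry no replicate numbers, other than pairing by labelled tissue, which the limma block does. One array per group, and readings at background, limit every fold.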

Other observations

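The probe whose identifier follows that of the Col1a1 probe is named Mbp, a myelin protein, and read 886 (SHT) and 91.1 (mock) in the pair labelled brain, 44.6 (SHT) and 99.0 (mock) in that labelled ovary, and 77.2 (SHT) and 407 (mock) in that labelled uterus. A second probe named Mbp read 77.4 (SHT) and 24552 (mock) in the pair labelled brain, 23439 (SHT) and 636 (mock) in that labelled ovary, and 1256 (SHT) and 296 (mock) in that labelled uterus. The first was lowest on the array labelled SHT ovary, where the second was near its highest. A probe named Sp7, an osteoblast transcription factor, read 449.99 (SHT) and 23606 (mock) in the pair labelled brain, 23016 (SHT) and 376 (mock) in that labelled ovary, and 596 (SHT) and 501 (mock) in that labelled uterus, with the same arrays high as for Col1a1. These 2 arrays held both highest readings for 28.4% of the named probes above background somewhere. The 2 probes of the cross-linking enzyme Loxl1 also differed. One read 29.0 (SHT) and 1516 (mock) in the pair labelled brain, 1449.5 (SHT) and 34.5 (mock) in that labelled ovary, and 33.0 (SHT) and 47.8 (mock) in that labelled uterus. The other read 384 (SHT) and 629 (mock) in the pair labelled brain, 493 (SHT) and 529 (mock) in that labelled ovary, and 715 (SHT) and 486 (mock) in that labelled uterus. These probes were chosen after their values were seen.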
